A study of Homo sapiens with 4 samples.

Results

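Neurexins, neuroligins and the leucine-rich repeat transmembrane neuronal proteins (LRRTMs) are adhesion proteins that face each other across the synaptic cleft, and 9 of their genes were followed here among 28307 gene symbols. They were taken by name, with no use of their values, though earlier results of these data were known. They were the 2 neurexin genes NRXN2 and NRXN3, the 3 neuroligin genes NLGN1, NLGN2 and NLGN3, and the 4 LRRTM genes LRRTM1 to LRRTM4. All 9 were present in every library's gene list. PolyA RNA was read (paired ends of 75 bp) in excitatory neurons derived from i3N-WTC11, a line of human induced pluripotent stem cells. One group (CRISPRi, 2 libraries) had received lentivirus with guide RNAs against a transposable element of the MIR family on chromosome 11, 2 guides for the element. The other (control, 2 libraries) had received the empty guide vector. Neurons of both groups carried dCas9-KRAB, a dead Cas9 joined to a repressor domain, driven by a CAG promoter in an intron of CLYBL. In both groups the virus was added at 2 weeks, with a multiplicity of infection near 3. Puromycin selection at 0.5 μg/mL lasted 4 days, and RNA was taken 7 days after transduction. All 4 libraries come from this 1 cell line. The sources used here do not tie a guide to a library. The labels call the replicates biologically independent without saying what was repeated.

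Neurexins sit on the presynaptic membrane and occur as long alpha and short beta forms made from separate promoters of the same gene, with extensive alternative splicing. Neuroligins and LRRTMs are their postsynaptic ligands: in rodents NLGN1 is found mainly at excitatory synapses, NLGN2 at inhibitory ones and NLGN3 at both, while LRRTMs act at excitatory synapses. Inside the cell neurexins bind adaptors such as CASK, and neuroligins bind scaffolds such as DLG4 (PSD-95) and gephyrin.

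The CRISPRi libraries held 44839748 and 41560282 gene counts, and the control libraries held 944993 (control 1) and 39325038 (control 2). One count therefore equals 1.06 CPM (the usual unit of counts scaled to the library's total gene count) in control 1 and at most 0.0254 CPM in the other libraries. Markers of the labelled cell type were detected. The 12 pan-neuronal markers summed to 21468 and 22272 CPM in the CRISPRi pair, and to 18822 and 21604 CPM in controls 1 and 2. The 8 glutamatergic markers summed to 529 and 546 CPM in the CRISPRi pair, and to 486 and 540 CPM in controls 1 and 2, led by SLC17A7. The 7 GABAergic markers summed to 7.38 and 8.04 CPM in the CRISPRi pair, and to 16.9 and 7.55 CPM in controls 1 and 2, with DLX5 and DLX6 at 0 throughout. Astrocyte markers summed to 7.41 CPM in control 1 and to at most 1.25 CPM in the other libraries, and microglial markers to at most 1.06 CPM in any. Mesenchymal markers, led by VIM, summed to 215 and 238 CPM in the CRISPRi pair, and to 294 and 211 CPM in controls 1 and 2. Oligodendrocyte-lineage markers summed to 28.7 to 32.7 CPM (SOX10 at 0) and pluripotency markers to 13.8 to 21.3 CPM (TDGF1 and L1TD1 at 0). Control 1 stood apart in dividing-cell markers, which summed to 52.6 and 56.4 CPM in the CRISPRi pair and to 319 and 56.8 CPM in controls 1 and 2, with all 8 of 8 highest in control 1. In bulk RNA fewer cells of a type and less RNA per cell cannot be told apart.

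NRXN2 (chromosome 11, 64606174 to 64723188, minus strand, GRCh38 in GENCODE release 29) was the highest member per length in the authors' deposited FPKM values (fragments scaled to transcript length and depth; the column has no header and was taken as FPKM from its values), at 89.7 and 89.3 FPKM in CRISPRi and at 129 and 90.8 FPKM in control 1 and 2. NLGN3 (chromosome X, 71144831 to 71171201, plus strand) came next, at 19 and 18.4 FPKM in CRISPRi and 15.8 and 18.8 FPKM in control 1 and 2. LRRTM4 (chromosome 2, 76747719 to 77593319, minus strand) ranged from 1.35 to 3.14 FPKM over the 4 libraries and NLGN1 (chromosome 3, 173396284 to 174286644, plus strand) from 1.66 to 2.47, so these neighbours overlapped. LRRTM2 (chromosome 5, 138868923 to 138875368, minus strand) ranged from 0.932 to 1.56 FPKM and NRXN3 (chromosome 14, 78170373 to 79868290, plus strand) from 0.788 to 1.41, again with overlap. LRRTM1 (chromosome 2, 80288351 to 80304749, minus strand) reached at most 1.19 FPKM and LRRTM3 (chromosome 10, 66926006 to 67099830, plus strand) at most 0.41. Both were listed at 0 in control 1.

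NLGN2 (chromosome 17, 7404874 to 7419860, plus strand) was listed at an FPKM of 0 in every library, although it held 12410 and 11153 counts in CRISPRi and 240 and 11069 counts in control 1 and 2. In the deposited files its row lies on a fix patch of chromosome 17, and 98.8% to 99.6% of the rows with a count and an FPKM of 0 lie outside the primary chromosomes. Its level per length was therefore set by a second scale, CPM per kilobase of annotated exon sequence. On that scale NLGN2 was at 49.9 and 48.4 CPM per kb in CRISPRi, and at 45.8 and 50.7 CPM per kb in control 1 and 2. NRXN2 was at 46.4 and 46.2 CPM per kb in CRISPRi, and at 57.4 and 46.9 CPM per kb in control 1 and 2. On this scale NRXN2 was above NLGN2 in control 1 and below it in the other libraries. That order rests on the length used. Annotated exon sequence was 10.58 kb for NRXN2 and 5.55 kb for NLGN2. The CPM and FPKM of NRXN2 imply a shorter length, of 4.71 to 5.48 kb over the libraries. NLGN2 has no usable FPKM, so which of them is higher per length is not settled.

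The second scale changed the order in the middle, where its lengths also differed from those implied by CPM and FPKM. For NLGN1 it used 10.148 kb, against an implied 16.6 to 16.9 kb. For LRRTM4 it used 5.41 kb, against an implied 3.14 to 3.68 kb. NLGN1 ranged from 2.71 to 4.1 CPM per kb and LRRTM4 from 0.782 to 2.08, with no overlap between them. Among 20124 symbols with a count in any library, mean CPM (not per length) placed NRXN2 at percentile 98.9 and NLGN2 at 96.8, whereas LRRTM1 lay at 36.6 and LRRTM3 at 35.2.

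**Figure D1:**
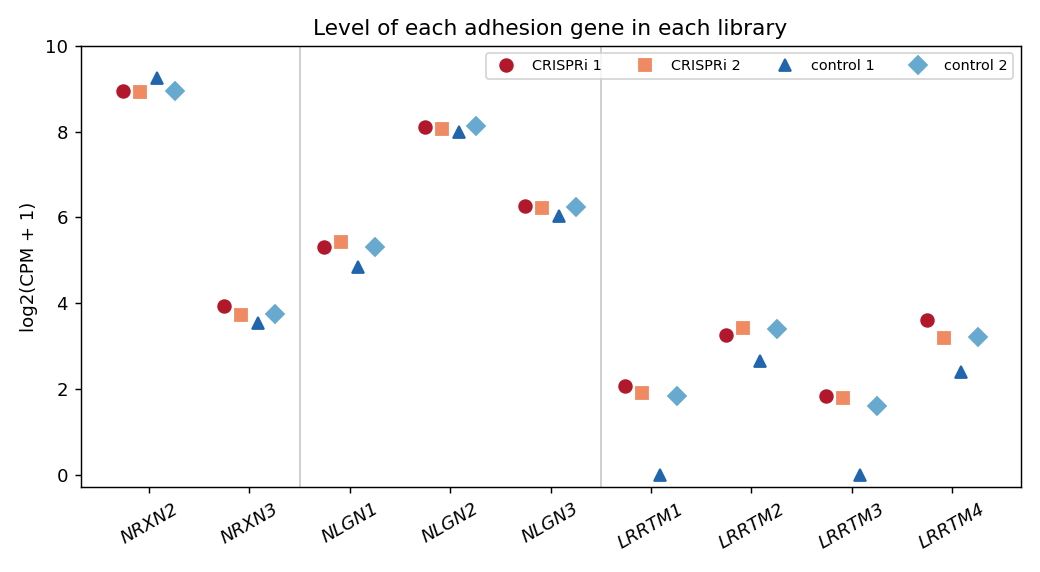
Level of each of the 9 genes in each library, as log2(CPM + 1) on the vertical axis, with red points for CRISPRi libraries and blue points for control libraries. NRXN2 and NLGN2 are the highest genes in every library, and control 1 (triangles) is the lowest library for 8 of the 9 genes and the highest for NRXN2, at 607 CPM.

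Of the 9 genes, 7 have an entry among the RefSeq promoter sequences (GRCh38.p14), with 11 transcript starts between them. NRXN2 and LRRTM4 have none there. The starts of 1 gene at high, 1 at middle and 1 at low level are shown, chosen among windows outside annotated exons, each by the 100 bases before it, 5′ to 3′ on the strand of the gene, with capitals marking every CG dinucleotide (CpG), the site of DNA methylation that is dense in CpG island promoters:
NLGN2: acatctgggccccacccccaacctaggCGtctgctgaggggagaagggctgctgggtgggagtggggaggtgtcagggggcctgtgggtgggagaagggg
NLGN1: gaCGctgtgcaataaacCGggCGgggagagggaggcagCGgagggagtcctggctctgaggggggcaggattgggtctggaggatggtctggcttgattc
LRRTM1: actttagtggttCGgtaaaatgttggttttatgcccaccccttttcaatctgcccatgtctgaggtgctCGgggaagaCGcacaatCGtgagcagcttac
The NLGN2 stretch is chr17:7407745-7407844 (plus strand), inside NLGN2 and outside its annotated exons. The NLGN1 stretch is chr3:173395852-173395951 (plus strand), outside any annotated gene, and the LRRTM1 stretch is chr2:80304753-80304852 (minus strand), inside CTNNA2 and outside annotated exons. In the examples shown, CpG content of the full 250 bases before the start did not follow the level of the gene. The NLGN2 window lies downstream of the annotated start of that gene at 7404874, and the bases before that start were not examined. The NLGN2 window held 2 CG and the NLGN1 window 19, against 6 in the LRRTM1 window. The windows not shown held 16 CG for NLGN3, 17 for NLGN1, 7 for LRRTM2, 2 and 2 for LRRTM3, and 3, 5 and 24 for NRXN3. A relation of CpG content to level over all 11 windows was not tested. The median over 35116 windows was 11 CG. Of all windows, 93.9% held at least 1 CG, 85.3% held at least the 2 of NLGN2, 61.9% at least the 6 of LRRTM1 and 34.6% at least the 19 of NLGN1. The dinucleotide reads the same on both strands. A window with few CG says only that these letters are scarce in these bases.

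The question of the comparison was which genes change when the element is targeted. None of the neurexin, neuroligin and LRRTM genes passed edgeR's quasi-likelihood F test after adjustment over all genes (Benjamini-Hochberg, threshold 0.05). All 9 passed the filter on low counts. Of them 0 were called higher and 0 lower, and at an unadjusted p below 0.05 there were also 0. Over all 15708 tested genes 0% were called higher and 0.0255% lower, and 0.961% were below 0.05 unadjusted. The other tools called 0 of the 9 as well, where DESeq2 called 0.0764% of all tested genes and limma-voom 0.0127%. Fits without 1 library called 0.106% (without CRISPRi 1), 0.206% (without CRISPRi 2), 0.659% (without control 1) and 8.58% (without control 2) of all genes, and 1 of the 9, NRXN2, in the last of these. The share was 0.267% with a replicate block, 0.0248% with no filter, 0.0216% with a filter of 1 CPM and 0.02% on primary chromosomes. In each of these fits 0 of the members were called, but NLGN2 has no row on primary chromosomes and was not tested there. Fold changes are CRISPRi over control on the log2 scale with 95% confidence intervals from the fit. The fitted values of the 9 genes ran from -0.14 to 0.52 with a median of 0.13, beside a median of 0.01 over all tested genes. They were positive for 8 of 9 members, beside 52.7% of all tested genes. Without control 1 they were positive for 5 of 9 with a median of 0.05, beside 7817 of the 15708 tested genes with a median of -0.0005. For 6 of the 9 the interval excluded a 2-fold change in either direction.

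Among the neurexins, NRXN2 was the member with a negative fold change. It was at 491 and 488 CPM in the CRISPRi pair, against 607 and 496 CPM in controls 1 and 2. The group means were 490 ± 2.06 CPM in the CRISPRi pair and 552 ± 78.5 CPM in control (SD, n = 2 each). Both control values lay above both CRISPRi values, by little in control 2 and by more in control 1. The log2 fold change was -0.14 (95% interval -0.41 to 0.12, edgeR adjusted p = 1). Without control 1 it was -0.01 (-0.11 to 0.08). Without control 2, which leaves control 1 alone in its group, it was -0.28 (-0.38 to -0.18) and passed (edgeR adjusted p = 0.0125), in a fit where 4.97% of tested genes were called lower and 3.61% higher. NRXN2 lies 17 Mb from the targeted element on the same chromosome.

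NRXN3, whose gene spans 1698 kb and gives many isoforms, was at 14.2 and 12.1 CPM in the CRISPRi pair, against 10.6 and 12.4 CPM in controls 1 and 2. The groups overlapped. Control 1 held 10 counts of it, and the log2 fold change was 0.13 (95% interval -0.30 to 0.57), or 0.09 without control 1. The deposited rows also list RefSeq transcripts of each gene, and for NRXN3 they list 7 and 5 in CRISPRi and 1 and 7 in control 1 and 2. The sources used here do not say how a transcript came to be listed.

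For each of the 3 neuroligins the interval of the fold change excluded a 2-fold change either way. NLGN2, the neuroligin of inhibitory synapses, was at 277 and 268 CPM in the CRISPRi pair, against 254 and 281 CPM in controls 1 and 2. The control libraries enclosed both CRISPRi libraries, and the log2 fold change of 0.03 had an interval of -0.19 to 0.25. NLGN3 was at 76.2 and 73.1 CPM in the CRISPRi pair, against 64.6 and 75.2 CPM in controls 1 and 2 (log2 fold change 0.06, interval -0.18 to 0.29). Here too the groups overlapped. NLGN1, the neuroligin of excitatory synapses, was at 38.4 and 41.7 CPM in the CRISPRi pair, against 27.5 and 38.7 CPM in controls 1 and 2, a log2 fold change of 0.15 (interval -0.21 to 0.52). Control 2 lay between the CRISPRi libraries, and control 1 lay below them on 26 counts. Without control 1 the fold changes of NLGN1, NLGN2 and NLGN3 were 0.05 (-0.12 to 0.23), -0.04 (-0.14 to 0.06) and -0.0044 (-0.12 to 0.12).

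The LRRTMs were the least precisely measured family. LRRTM4, which in rodents binds the heparan sulfate of glypicans and neurexins, was at 11.2 and 8.13 CPM in the CRISPRi pair, against 4.23 and 8.32 CPM in controls 1 and 2. Control 2 lay between the CRISPRi libraries, which differed from each other by 504 against 338 counts. The log2 fold change was 0.35 (interval -0.38 to 1.08). LRRTM2, a neurexin ligand at excitatory synapses, was at 8.52 and 9.7 CPM in the CRISPRi pair, against 5.29 and 9.51 CPM in controls 1 and 2 (log2 fold change 0.06, interval -0.55 to 0.68). The value of 5.29 CPM in control 1 rests on 5 counts.

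LRRTM1 was at 3.17 and 2.74 CPM in the CRISPRi pair (142 and 114 counts), against 0 counts in control 1 and 2.57 CPM (101 counts) in control 2. LRRTM3 was at 2.54 and 2.45 CPM in the CRISPRi pair (114 and 102 counts), against 0 counts in control 1 and 2.03 CPM (80 counts) in control 2. For both genes the CRISPRi libraries lay above both controls, but 0 counts in control 1 allow up to 3.17 CPM (3 counts), as high as any other library. The log2 fold changes were 0.44 (SE 0.58, upper bound of the interval 1.89) and 0.52 (interval -0.92 to 1.96). Without control 1 they were 0.21 (-0.29 to 0.70) for LRRTM1 and 0.30 (-0.22 to 0.82) for LRRTM3. With NRXN2, which was lower, the groups did not overlap for 3 of the 9 genes, beside 34.3% of all tested genes (17.8% higher and 16.5% lower).

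**Figure D2:**
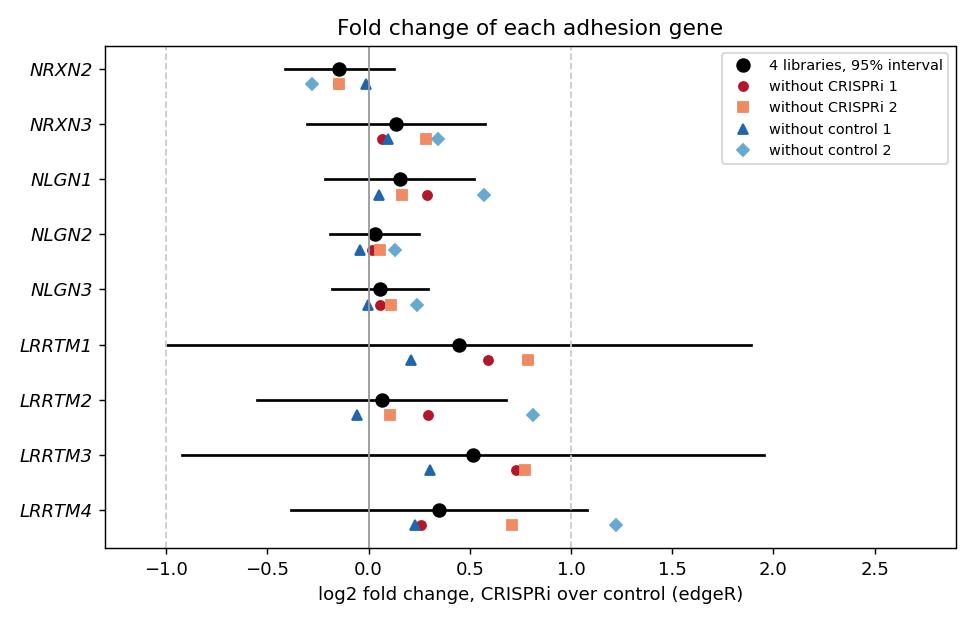
Log2 fold change of each gene, CRISPRi over control, on the horizontal axis, with the fit of all 4 libraries as a black point and its 95% interval as a line, and coloured points below for the fits without 1 library (names in the legend; the points without CRISPRi 1 and without CRISPRi 2 coincide for NRXN2). Dashed lines mark a 2-fold change. Values without control 2 are left out for LRRTM1 and LRRTM3, which have 0 counts in control 1. Without control 1 all fold changes lie between -0.06 and 0.30, and those without control 2 lie farthest from 0 for each gene shown.

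The share of each family's counts held by its members was compared within libraries, where total depth cancels. NRXN2 held 97.2% and 97.6% of the counts of the neurexin pair in CRISPRi, and 98.3% and 97.6% in control 1 and 2. NLGN2 held 70.7% (Wilson 95% interval 70.0 to 71.4) and 70.1% (69.3 to 70.8) of neuroligin counts in CRISPRi, and 73.4% (68.4 to 77.9) and 71.2% (70.5 to 71.9) in control 1 and 2. These intervals cover at most counting error and leave out the spread between libraries. They assume that reads are independent molecules, which is not known. NLGN3 held 18.7% to 19.5% and NLGN1 7.95% to 10.9% in any library.

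Among LRRTMs, LRRTM4 held 44.1% (41.3 to 47.0) of the counts in CRISPRi 1 and 35.3% (32.4 to 38.4) in CRISPRi 2, against 44.4% (18.9 to 73.3) in control 1 and 37.1% (33.9 to 40.3) in control 2. LRRTM2 held 33.5% (30.8 to 36.2) and 42.1% (39.0 to 45.3) in CRISPRi 1 and 2, against 55.6% (26.7 to 81.1) and 42.4% (39.2 to 45.7) in control 1 and 2. The intervals of CRISPRi 1 do not overlap those of CRISPRi 2 for either gene, while those of CRISPRi 2 and control 2 do. Control 1 held 9 LRRTM counts in all, so that 0 counts of LRRTM1 or LRRTM3 allow a share of up to 33.3% (3 counts of 9).

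**Figure D3:**
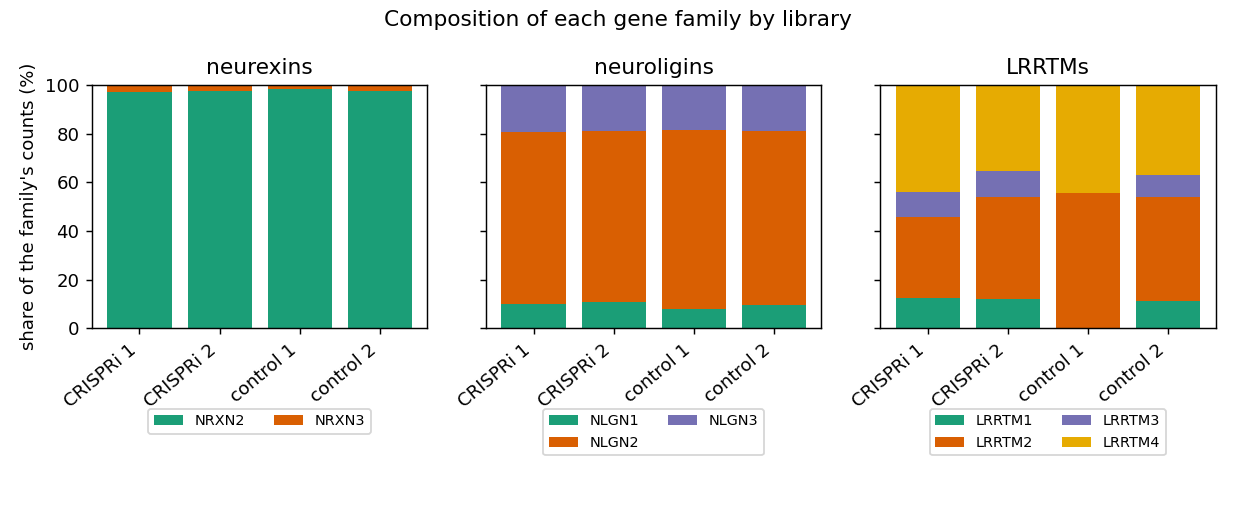
Share of each family's counts held by each gene, in percent, as stacked bars for the CRISPRi and then the control libraries. NRXN2 and NLGN2 hold most counts of their families in every library, and LRRTM4 is the largest share of LRRTM counts in CRISPRi 1 but not in CRISPRi 2.

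The counts of control 1 were set beside those that the level of control 2 would give at its depth. The Poisson intervals used for this cover counting error only and leave out the spread between libraries. At the level of control 2, 469 counts of NRXN2 would be expected in control 1, where 574 were observed (exact Poisson 95% interval 528 to 623). For NLGN2 266 would be expected and 240 (211 to 272) were observed. For the neuroligins together 374 would be expected and 327 (293 to 364) were observed, for the LRRTMs 21.2 and 9 (4.12 to 17.1), and for the neurexins 481 and 584 (538 to 633). The expectation lay outside the interval for 1 of the 9 members, NRXN2, and for the sum of each family. It lay outside for 19.7% of all tested genes. Of the 948 tested genes with an expected count of at least 200, such as NRXN2 and NLGN2, it lay outside for 49.4%. These shares hold both directions. With the observed count above the expectation, as for NRXN2, they were 11.8% of all tested genes and 15.8% of the 948. A count outside its interval was thus not particular to NRXN2. The ratio of NRXN2 to NLGN2 counts was 1.78 and 1.82 in CRISPRi, and 2.39 and 1.76 in control 1 and 2. Control 1 was the lowest library for 8 of 9 members, beside 50.2% of all tested genes. Its dividing-cell markers were high (319 CPM, given above) and their part in these differences was not tested.

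**Figure D4:**
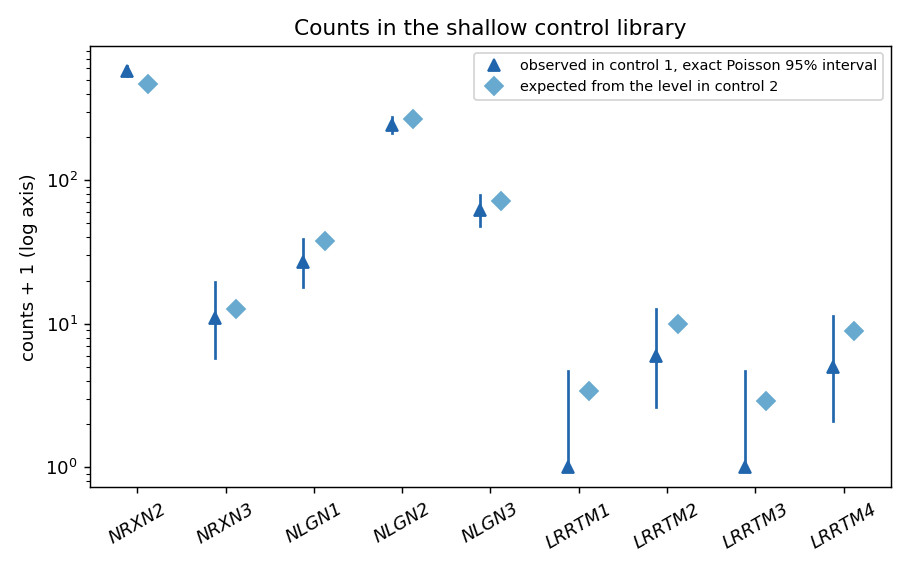
Counts of each gene in control 1 (triangles, with exact Poisson 95% intervals) beside the counts expected there from the level in control 2 (diamonds), plotted as counts + 1 on a log axis. NRXN2 is the gene whose expected count, 469, lies outside its interval.

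All of the LRRTM genes but LRRTM4 lie inside an alpha-catenin gene, on its opposite strand: LRRTM1 in CTNNA2, LRRTM2 in CTNNA1 and LRRTM3 in CTNNA3. Alpha-catenins link cadherins to actin. LRRTM2 shares 445 exon bases (7.3% of its own) with CTNNA1, and it was the only member to share exon bases with another annotated gene, among 21 overlapping ones. The sources used here give no strand setting for the counting, so LRRTM2 counts may hold CTNNA1 reads. CTNNA2 was at 163 and 159 CPM in the CRISPRi pair, against 145 and 156 CPM in controls 1 and 2 (log2 fold change 0.10). CTNNA1 was at 165 and 178 CPM in the CRISPRi pair, against 159 and 181 CPM in controls 1 and 2 (log2 fold change 0.00). CTNNA3 was low, with 1.34 and 1.11 CPM in the CRISPRi pair, against 0 and 1.12 CPM in controls 1 and 2. None of the 3 passed the test. In CPM, which is not scaled to length, the host genes of LRRTM1 and LRRTM3 differed widely in level, and the nested genes differed less. In FPKM LRRTM1 was at 1.19 and 1.03 in CRISPRi and 0.964 in control 2. LRRTM3 was at 0.41 and 0.395 FPKM in CRISPRi and 0.327 FPKM in control 2.

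The genes that work with these adhesion molecules were described from 8 lists of 110 genes, of which 104 were tested. By edgeR 0 were called higher and 0 lower. At an unadjusted p below 0.05 there were 2 higher and 1 lower, and the other tools called 0. The fold change was positive for 66 of the 104 with a median of 0.04, beside 0.01 over all tested genes. Without control 1 it was positive for 43 with a median of -0.02, beside 7817 of all 15708 tested genes with a median of -0.0005. The background of calls was the 0% and 0.0255% given above. CBLN4, SLITRK2 and SLITRK4 had 0 counts in every library.

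Of 18 tested extracellular ligands of neurexins 16 had a positive fold change (median 0.09), and without control 1, 8 did (median -0.0022). CLSTN1, a calsyntenin, was the most abundant, at 557 and 544 CPM in the CRISPRi pair and 512 and 553 CPM in controls 1 and 2. CA11, a carbonic anhydrase-related protein, was at 70.7 and 71.2 CPM in the CRISPRi pair, against 32.8 and 67.3 CPM in controls 1 and 2. Its log2 fold change of 0.28 was 0.08 without control 1 and 1.14, past the threshold, without control 2. CLSTN2 had a log2 fold change of 0.12 (interval -0.15 to 0.39).

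Of 13 membrane partners of neuroligins and LRRTMs 8 had a positive fold change (median 0.04). MDGA1, which binds neuroligins and blocks their contact with neurexins, was at 558 and 522 CPM in the CRISPRi pair, against 434 and 523 CPM in controls 1 and 2 (log2 fold change 0.18, interval -0.11 to 0.47). It passed without control 2 (0.35) and not without control 1 (0.05). The syndecan SDC3 was the most abundant (log2 fold change 0.07, and 0.19, past the threshold, without control 2). The glypican GPC3 was at 3.37 and 4.45 CPM in the CRISPRi pair, against 14.8 and 4.68 CPM in controls 1 and 2; its log2 fold change of -0.83 was -0.26 without control 1 and -1.89, past the threshold, without control 2.

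Of 12 cytoplasmic adaptors of neurexins 5 had a positive fold change (median -0.02). CASK, the scaffold kinase that binds the neurexin tail, was at 261 and 265 CPM in the CRISPRi pair, against 289 and 267 CPM in controls 1 and 2 (log2 fold change -0.06, interval -0.25 to 0.14). LIN7A, a partner of CASK, had a fitted log2 value of 0.19, which was 0.08 without control 1 and 0.47, past the threshold, without control 2. The liprin PPFIA1 had one of -0.11 (interval -0.35 to 0.13).

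Of 17 postsynaptic scaffolds 10 had a positive fold change (median 0.04), and without control 1, 3 did (median -0.03). DLG4, which binds neuroligin tails, was at 267 and 273 CPM in the CRISPRi pair, against 392 and 278 CPM in controls 1 and 2. Its log2 fold change was -0.26 (interval -0.65 to 0.13), or -0.03 without control 1 and -0.51, past the threshold, without control 2. DLG4 and NRXN2 had their highest value in control 1, in which the neuroligins had their lowest. Control 1 was the highest library for 39.5% of all tested genes and the lowest for 50.2%. HOMER1 had a log2 fold change of 0.17 (interval -0.21 to 0.55).

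Of 26 other synapse-forming adhesion genes 16 had a positive fold change (median 0.03), and without control 1, 8 did (median -0.03). PTPRS, a receptor phosphatase of the presynaptic side, was at 490 and 476 CPM in the CRISPRi pair, against 414 and 512 CPM in controls 1 and 2 (log2 fold change 0.07, or -0.08 without control 1 and 0.25, past the threshold, without control 2). The neurotrophin receptor NTRK3 varied within each group, at 143 and 62.9 CPM in the CRISPRi pair, against 217 and 142 CPM in controls 1 and 2. Its log2 fold change was -0.71 (SE 0.48), and it passed without CRISPRi 1 (-1.45). TENM1 had a log2 fold change of 0.13 (interval -0.13 to 0.40).

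Of 9 tested genes in a list of splicing regulators of neurexin transcripts 6 had a positive fold change (median 0.01). RBFOX2 was the most abundant, at 810 and 811 CPM in the CRISPRi pair and 784 and 810 CPM in controls 1 and 2. NOVA1 was at 110 and 104 CPM in the CRISPRi pair, against 104 and 60.4 CPM in controls 1 and 2. Its log2 fold change of 0.59 (interval 0.02 to 1.16, edgeR adjusted p = 1) was 0.83, past the threshold, without control 1 and 0.08 without control 2. KHDRBS2 (SLM1), which in mouse controls a neurexin splice site, had a log2 fold change of 0.24 (interval -0.15 to 0.63). Of 6 membrane sheddases 2 had a positive fold change (median -0.07), and without control 1, 3 did (median 0.01). ADAM10, a protease that sheds NLGN1 and neurexins in rodents, was at 71.8 and 73 CPM in the CRISPRi pair, against 87.8 and 94.4 CPM in controls 1 and 2. Both controls lay above both CRISPRi libraries (log2 fold change -0.34, interval -0.54 to -0.15, edgeR adjusted p = 1), and it passed without control 1 (-0.38). MMP2 had a log2 fold change of 0.26 (interval 0.01 to 0.51, edgeR adjusted p = 1) and MMP24 one of -0.06.

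**Figure D5:**
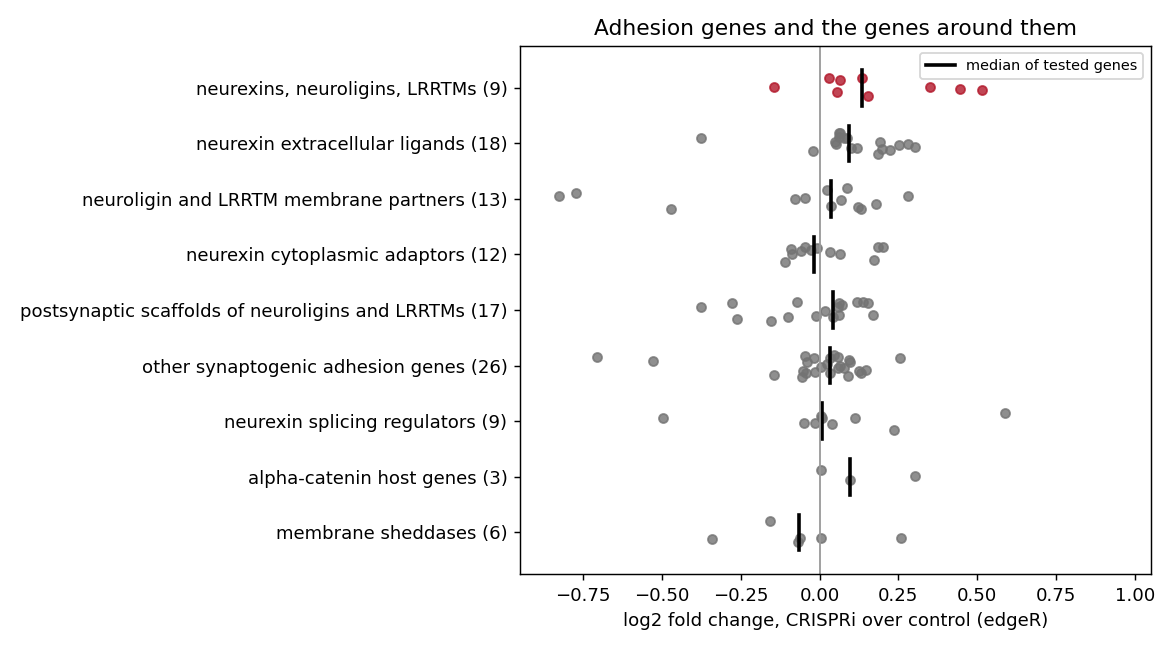
Log2 fold change, CRISPRi over control, of the tested genes of each list (number in brackets), with the median as a bar; vertical scatter within a row has no meaning. Medians of the lists lie between -0.07 and 0.10, and that of the 9 adhesion genes (red) at 0.13.

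Profiles most like those of the leading members were sought over the 4 libraries among 4682 tested genes with at least 50 counts in each, by the root-mean-square distance of centred log2(CPM + 1) values. MBD1, TCF3 and FUBP3 were nearest to NRXN2 (distances 0.00479 to 0.00821). BSCL2, FAM50A and YY1AP1 were nearest to NLGN2 (0.00464 to 0.00514). SYNJ1, FAM222B and ALK were nearest to LRRTM2 (0.0693 to 0.0729), whose counts in control 1 are few. Of the 4682 genes 29.4% lay within 0.1 of NRXN2, 56.1% within 0.1 of NLGN2 and 0.384% (18 genes) within 0.1 of LRRTM2. With 5 counts in control 1, LRRTM2 itself lies below the limit of 50 counts. Its share therefore cannot be set against those of NRXN2 and NLGN2.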

How the data were processed

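The authors deposited, for each library and gene, a whole-number read count and a per-length value, taken here as FPKM from its scale because the files have no header. The build was hg38 and edgeR and limma were among the tools named, per the submitters' processing notes; for the aligner, the counting tool and the use of strand, the entry is "not given in the sources used here". Deposited counts were summed per symbol over all rows, which include patches and alternate contigs (5.08% to 5.15% of counts), and scaled to the library's total. The 2 groups were tested in edgeR (4.0.16, under R 4.3.3) by a robust quasi-likelihood fit after filterByExpr and TMM scaling. The model held the group alone, and p-values were adjusted by Benjamini-Hochberg (0.05). Intervals derive from the F statistic. The test was tried on simulated counts with 200 changed genes. No permutation p is given, since 2 against 2 libraries allow none under 0.333 (exact, two-sided). Wilson and Poisson intervals cover counting error only, and p-values measure the spread between these libraries.

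The members and lists were chosen with earlier results of these data known. From each list the text names the pair of tested genes with the smallest p and the most abundant one; GPC4, FLRT3 and PTBP1 were picked from their values. The alternatives included DESeq2 1.42.0 and limma-voom (limma 3.58.1), scaling by median of ratios or by totals, other filters on low counts (none, or 1 CPM in 2 libraries), primary chromosomes only, the replicate number as a block, leaving out each library, and an adjusted p under 0.1. A lone library left in a group is assumed to vary like the other group. Exon lengths are unions over GENCODE release 29 transcripts and were chosen as a second length scale after the data were seen. All 4 libraries were kept as separate samples, since none repeated another.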

Additional observations from a re-analysis of the deposited data

How the results depend on the processing

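No member was called under other scalings, filters, tools, contigs, the replicate block or an adjusted p under 0.1. With scaling by median of ratios or by totals, 0.0255% of all tested genes were called. The share of all genes at an adjusted p under 0.1 was not counted. With a library left out the members called lower ranged from 0 to 1 (NRXN2, without control 2) and those called higher stayed at 0. The listed partner genes called higher ranged from 0 to 12 and those called lower from 0 to 5 with a library left out. The highest counts, without control 2, are 11.5% and 4.81% of the 104 tested, beside 3.61% and 4.97% of all genes. With the replicate block 0 were called higher and 1 lower, NTRK3 (log2 fold change -0.90). The labels do not pair libraries by number, and the correlation of same-numbered deviations over genes was -0.03. Of 107 member fold changes recomputed, 102 stayed on the same side of 0 and of the threshold, 1 gained a call and 4 turned sign. The log2 fold change of NLGN2 was -0.019 with limma-voom and ranged from -0.041 to 0.13 over the fits without 1 library; over the same fits that of NLGN3 ranged from -0.0044 to 0.24 and that of LRRTM2 from -0.057 to 0.81. The cause was not tested. NLGN2 has no value on primary chromosomes only, where it has no row. By FPKM in place of counts NRXN2 held 98.8% of the neurexin pair and LRRTM4 49.7% of the LRRTM sum (means of 4 libraries), and LRRTM4 ranked above NLGN1. In control 1, 3 counts equal 3.17 CPM, which limits LRRTM1 and LRRTM3.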

Other observations

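Of the 104 tested partner genes 32 (30.8%) were highest in control 1, beside 39.5% of all tested genes. The examples below were picked from their values. The glypican GPC4, a ligand of LRRTM4 in rodents, was at 2.81 and 3.01 CPM in CRISPRi, against 12.7 CPM (12 counts) in control 1 and 2.72 CPM in control 2. FLRT3, a ligand of latrophilins, was at 3.39 and 3.92 CPM in CRISPRi, against 11.6 CPM (11 counts) in control 1 and 3.61 CPM in control 2. PTBP1, a splicing repressor that neurons turn down as they differentiate, was at 81.8 and 83.9 CPM in CRISPRi, against 187 CPM (177 counts) in control 1 and 85.7 CPM in control 2. Without control 2, which leaves control 1 alone in its group, the log2 fold changes of GPC4, FLRT3 and PTBP1 were -2.10, -1.64 and -1.15. Without control 1 they were 0.10, 0.02 and -0.04. Because the genes were picked from values that include control 1, the fit without control 2 is no test of them. The dividing-cell markers moved with these values (52.6 and 56.4 CPM summed in CRISPRi, 319 and 56.8 CPM in control 1 and 2), and their part was not tested.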
